A study of Mus musculus with 12 samples.

Results

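The MHC class II antigen presentation genes are taken here as 7 genes, namely H2-Aa, H2-Ab1, H2-Eb1, H2-DMa, H2-DMb1, Cd74 and Ciita. Every probe set annotated to one of them was included, whatever its values, which gave 16 of the 45037 probe sets tested. The 7 are among 19324 genes that the array annotation names. H2-Aa had 4 probe sets, H2-Ab1 and Ciita had 3 each, H2-DMa had 2, and H2-Eb1 and Cd74 had 1 each. Both probe sets of H2-DMb1 also carry the symbol of its near-identical neighbour H2-DMb2, so these paralogs could not be told apart there. The kidneys came from 4 groups of 3 male mice aged 2.5 months, all F1 offspring of C57BL6 and 129/SvEv parents and all on the diet labelled NS. The groups were AT1A receptor-deficient mice (KO) infused with angiotensin II (ANG II) at 1 ug/kg/min for 2 days, KO mice at baseline, wild-type (WT) mice given the same infusion, and WT mice at baseline. The KO mice lack Agtr1a, one of the 2 mouse genes for the AT1 receptor of angiotensin II. Whole-kidney RNA of each mouse was hybridised to its own array (Affymetrix Mouse Genome 430 2.0).

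Each value is the ratio of an array to the median of that probe set over all 12 arrays. A ratio of 1 is thus the middle of the series, and levels of different genes cannot be set against each other. They do not show how far a signal stood above background either, and the number of arrays limits the precision. The tissue label could not be checked by level for the same reason. The mean log2 ratio of 9 measured genes that mark kidney cell types was -0.06 to 0.04 in KO and 0.00 to 0.03 in WT kidneys at baseline. The single probe set of Agtr1a, whose place relative to the deletion is unknown here, gave ratios of 0.923 to 1.04 in KO and 1.36 to 1.40 in WT kidneys at baseline, and 0.917 to 1.05 in KO and 0.957 to 1.00 in WT kidneys under ANG II.

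MHC class II molecules present peptides from endocytosed proteins to helper T cells. They are made mainly by dendritic cells, macrophages and B cells, and the kidney holds a network of such phagocytes between its tubules. The alpha and beta chains assemble with the invariant chain, encoded by Cd74, which fills the peptide groove and routes the complex to endosomes. Proteases such as cathepsin S degrade the invariant chain there, and the DM heterodimer exchanges its last fragment for antigenic peptide. Ciita is the coactivator that switches these genes on. It does not bind DNA itself but docks on a complex of RFX, CREB and NF-Y proteins at class II promoters.

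Promoter windows were available for 4 of the 7 members in RefSeq (GRCm38.p6). The windows of 3 are shown because they carry the element that NF-Y recognises at a similar place. By leading probe sets, defined below, H2-DMa, not shown, had Pearson r of 0.90 with H2-Aa and 0.92 with H2-Eb1 over the arrays. For H2-DMb1 these were 0.82 and 0.84. Whether the element goes with the changes was not tested. Capitals mark CCAAT on either strand (printed as ATTGG on the other strand), TGACG on either strand, and a run of 13 bases that H2-Eb1 and H2-DMb1 share. Each window runs from 250 bases before to 50 bases after the start of the gene.
H2-Aa (chr17:34287774-34288073, minus strand): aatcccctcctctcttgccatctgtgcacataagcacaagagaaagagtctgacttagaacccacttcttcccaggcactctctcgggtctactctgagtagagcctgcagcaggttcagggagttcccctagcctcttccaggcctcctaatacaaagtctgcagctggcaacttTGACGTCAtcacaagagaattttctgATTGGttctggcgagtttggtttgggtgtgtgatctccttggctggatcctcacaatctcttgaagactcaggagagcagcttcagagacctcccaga
H2-Eb1 (chr17:34305617-34305916, plus strand): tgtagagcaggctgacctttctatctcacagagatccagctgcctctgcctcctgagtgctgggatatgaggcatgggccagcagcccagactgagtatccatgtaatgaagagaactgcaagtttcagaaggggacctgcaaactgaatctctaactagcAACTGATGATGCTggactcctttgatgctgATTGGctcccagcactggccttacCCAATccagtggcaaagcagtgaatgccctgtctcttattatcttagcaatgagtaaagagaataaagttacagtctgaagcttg
H2-DMb1 (chr17:34152941-34153240, plus strand): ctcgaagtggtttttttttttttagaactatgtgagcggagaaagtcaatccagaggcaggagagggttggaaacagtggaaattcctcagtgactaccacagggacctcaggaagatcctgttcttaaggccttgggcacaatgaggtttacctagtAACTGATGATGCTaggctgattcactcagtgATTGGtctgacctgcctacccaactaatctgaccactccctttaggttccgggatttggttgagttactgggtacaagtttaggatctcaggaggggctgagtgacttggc

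Counted from the start of the gene, the antisense CCAAT began at -48 in H2-Aa, -59 in H2-Eb1 and -61 in H2-DMb1. H2-Eb1 had a second CCAAT at -35, on the sense strand. Of the 2 start windows of H2-DMa, the second held CCAAT at -198 and the first held none. CCAAT was common in general and occurred on either strand in 37.4% of 32851 windows. The longer TGATTGG, chosen after these windows were read, occurred in 7.82% of windows and contains the antisense CCAAT of all 3 genes. TGACG, the first 5 bases of the site of CREB, was found only in H2-Aa among the 5 windows of members, on both strands in overlap, and in 20.8% of all windows. The run AACTGATGATGCT, also chosen after reading, lay at -89 in H2-Eb1 and -92 in H2-DMb1, with 17 and 18 bases between it and the CCAAT, and in 3 of all 32851 windows, the other being that of Slc39a10 on chromosome 1. GAAA, any 2 bases and GAAA again, a site of interferon regulatory factors, was in 0 of the 5 windows and in 3.44% of all. A match is a description of letters and not evidence of binding.

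Kidneys of untreated KO mice carried more class II RNA than those of untreated WT mice. Of the 16 probe sets, 12 were higher in KO at an adjusted p under 0.05 (limma with Benjamini-Hochberg adjustment over all probe sets), and 0 were lower. Over all probe sets 6.52% were called in this comparison, 4.87% higher and 1.65% lower. By gene, 6 of the 7 were called, and Ciita was the exception. The median log2 change was 1.09 over the 16 probe sets and -0.03 over all probe sets. In 13 of the 16 probe sets every KO array lay above every WT array, as it did for 14.0% of all probe sets, and in 0 did every KO array lie below (16.9% of all). Whole-kidney RNA cannot tell more presenting cells from more class II RNA in each cell.

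**Figure D1:**
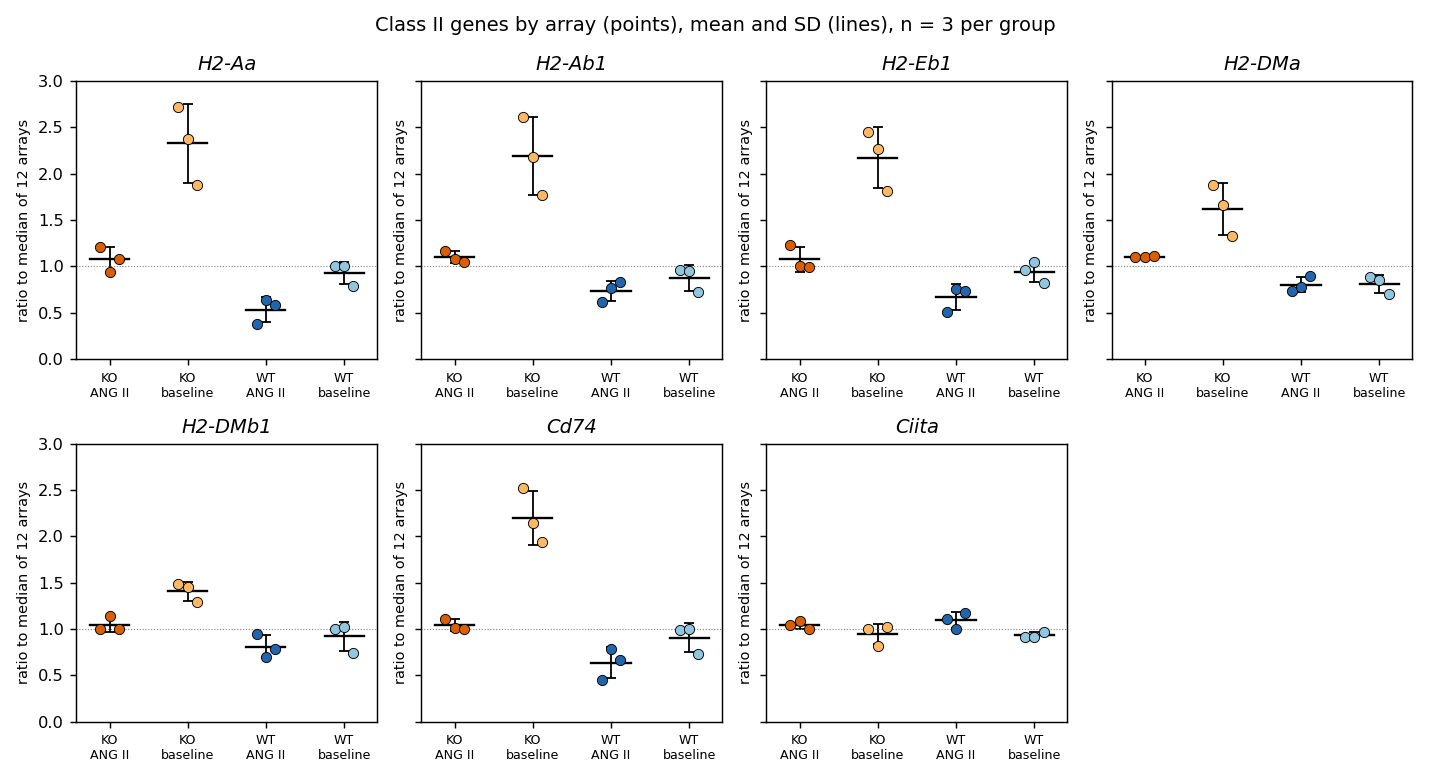
Ratio of each array to the median of the 12 arrays (y axis) for the leading probe set of each gene, in KO ANG II, KO baseline, WT ANG II and WT baseline kidneys. Points are arrays, lines the mean and SD of 3. For 6 genes the KO baseline arrays lie above those of the other 3 groups, while those of Ciita overlap each other group.

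For each gene a leading probe set was fixed by its name, a plain one before those marked a, s or x. H2-Aa, the alpha chain of the I-A molecule, had ratios of 2.73, 2.38 and 1.88 in KO baseline kidneys, against 1.00, 0.999 and 0.788 in WT baseline kidneys. The 2 groups were fully separate. The log2 change was 1.32 ± 0.18 (moderated SE, n = 3 per group, adjusted p = 0.00126, limma), a 2.49-fold difference. Its partner H2-Ab1, the beta chain of I-A, had ratios of 2.61, 2.18 and 1.77 in KO baseline kidneys, against 0.958, 0.954 and 0.718 in WT baseline kidneys. It too was 2.49-fold higher, with a log2 change of 1.32 ± 0.15 (adjusted p = 0.000379, limma). H2-Eb1 encodes the beta chain of I-E, whose alpha chain gene H2-Ea is annotated as a transcribed pseudogene in the C57BL/6J reference. H2-Eb1 had ratios of 2.45, 2.26 and 1.81 in KO baseline kidneys, against 0.966, 1.04 and 0.824 in WT baseline kidneys. The groups did not overlap, and the difference was 2.29-fold (adjusted p = 0.000941, limma). The remaining 3 probe sets of H2-Aa and 2 of H2-Ab1 were called as well, with log2 changes from 1.05 to 1.28.

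Cd74, the invariant chain, had ratios of 2.52, 2.14 and 1.94 in KO baseline kidneys, against 0.994, 0.999 and 0.727 in WT baseline kidneys. It was 2.44-fold higher in KO (log2 change 1.29 ± 0.18, adjusted p = 0.0011, limma). The first KO array was the highest and the third WT array the lowest for this gene, as for H2-Aa and H2-Ab1.

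The DM genes, whose product edits the peptides loaded on class II, were also higher, with smaller log2 changes. H2-DMa had ratios of 1.88, 1.66 and 1.33 in KO baseline kidneys, against 0.881, 0.855 and 0.699 in WT baseline kidneys, without overlap. Its log2 change was 0.99 ± 0.13 (adjusted p = 0.000756, limma). The second H2-DMa probe set did not follow it, at -0.0021 ± 0.15, and was called in none of the 5 comparisons. H2-DMb1 had ratios of 1.48, 1.45 and 1.29 in KO baseline kidneys, against 0.999, 1.02 and 0.741 in WT baseline kidneys. Its log2 change was 0.62 ± 0.13 (adjusted p = 0.0149, limma), and that call was lost when KO baseline replicate 1 (adjusted p = 0.0517), KO baseline replicate 2 (0.0616) or WT baseline replicate 3 (0.0699) was left out. The other H2-DMb1 probe set was called at 0.56 ± 0.10 (adjusted p = 0.00454).

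Ciita, the coactivator of the whole set, was not called in any of its 3 probe sets in any comparison. Its leading probe set had ratios of 1.00, 0.822 and 1.02 in KO baseline kidneys, against 0.912, 0.914 and 0.972 in WT baseline kidneys. The groups overlapped, and the log2 change was 0.02 with a 95% interval of -0.19 to 0.22 (adjusted p = 0.937, limma). Another of its probe sets had a change of 0.32 ± 0.15 (adjusted p = 0.207, limma), with every KO array above every WT array. Whether any of these probe sets measured signal above background is unknown from ratios.

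In KO mice the infusion was accompanied by lower class II RNA. Of the 16 probe sets 11 fell and 0 rose in KO ANG II against KO baseline kidneys, where 9.91% of all probe sets were called, 6.31% lower and 3.60% higher. The median log2 change was -0.95 over the members and 0.05 over all probe sets, and in 12 of 16 every infused array lay below every baseline array (15.2% of all probe sets). In 0 of 16 every infused array lay above (19.4% of all). This comparison and the preceding one share the KO baseline arrays, so high values in those 3 mice enter both.

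H2-Aa had ratios of 1.21, 0.944 and 1.08 in KO ANG II kidneys, a fall of 2.15-fold from the KO baseline values above (log2 change -1.10 ± 0.18, adjusted p = 0.00253, limma). H2-Ab1, at 1.17, 1.08 and 1.04 in KO ANG II kidneys, changed by -0.98 (log2), and H2-Eb1, at 1.23, 1.00 and 0.998, by -1.01, and both were called. Cd74 had ratios of 1.11, 1.01 and 1.00 in KO ANG II kidneys and fell by 1.07 (adjusted p = 0.00229, limma). For these 4 genes the infused KO kidneys were close to the middle of the series and the arrays of the groups were separate. Quantile normalization of the deposited values reduced the log2 changes by over 1.5 times, to -0.69 for H2-Aa, -0.58 for H2-Ab1, -0.63 for H2-Eb1 and -0.69 for Cd74, and each remained called.

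H2-DMa had ratios of 1.10, 1.11 and 1.11 in KO ANG II kidneys and a log2 change of -0.54 ± 0.13 (adjusted p = 0.0173, limma). Quantile normalization brought it to -0.31 and ended the call (adjusted p = 0.07), as did leaving out KO ANG II replicate 2 (0.0502), KO ANG II replicate 3 (0.0551), KO baseline replicate 1 (0.0715) or KO baseline replicate 2 (0.0642). H2-DMb1 had ratios of 0.999, 1.14 and 1.00 in KO ANG II kidneys. Its leading probe set, at -0.43 ± 0.13, missed the threshold (adjusted p = 0.0604, limma), while its other probe set, at -0.43 ± 0.10, passed it (adjusted p = 0.0143, limma). Fitted on the compared groups alone, the leading probe set passed too (adjusted p = 0.0277). Ciita had ratios of 1.04, 1.08 and 1.00 in KO ANG II kidneys, with a change of 0.14 ± 0.10 (adjusted p = 0.363, limma).

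In WT mice the infusion was accompanied by lower RNA of H2-Aa, H2-Eb1 and Cd74. Of the 16 probe sets 6 fell and 0 rose in WT ANG II against WT baseline kidneys, where 24.1% of all probe sets were called, 13.3% lower and 10.9% higher. The 6 were the 4 of H2-Aa and those of H2-Eb1 and Cd74. The median log2 change was -0.20 over the members, and in 4 of 16 every infused array lay below every baseline array (18.5% of all probe sets). In 2 of 16, both of Ciita, every infused array lay above (20.4% of all).

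H2-Aa had ratios of 0.378, 0.635 and 0.579 in WT ANG II kidneys, all below the WT baseline arrays. The log2 change was -0.83 ± 0.18 (adjusted p = 0.0064, limma), a 1.78-fold fall, which quantile normalization reduced to -0.48 (adjusted p = 0.0376). H2-Eb1 had ratios of 0.508, 0.760 and 0.737 in WT ANG II kidneys with a log2 change of -0.51 ± 0.16 (adjusted p = 0.0318, limma). Cd74 had ratios of 0.454, 0.782 and 0.670 in WT ANG II kidneys with a log2 change of -0.53 ± 0.18 (adjusted p = 0.0416, limma), although its groups overlapped. For these 3 genes the first infused WT array was the lowest of all 12. Without it the change was -0.33 for H2-Eb1 (adjusted p = 0.102) and -0.31 for Cd74 (adjusted p = 0.134), and the calls of both ended. The H2-Eb1 call was also lost with quantile normalization (-0.30, adjusted p = 0.145) and when WT baseline replicate 1 (0.0972) or WT baseline replicate 2 (0.105) was left out. The Cd74 call was lost in 9 of 21 alternatives in all, among them quantile normalization (-0.27, adjusted p = 0.206), and for left-out arrays also those without WT ANG II replicate 3, KO ANG II replicate 2, KO baseline replicate 2, WT baseline replicate 1 and WT baseline replicate 2, at 0.0512 to 0.148. The H2-Aa call was kept under all 21 alternatives, with an adjusted p of 0.00295 to 0.0376 (limma).

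H2-Ab1 had ratios of 0.617, 0.767 and 0.827 in WT ANG II kidneys, which overlapped the WT baseline range of 0.718 to 0.958. Its log2 change was -0.25 ± 0.15 (adjusted p = 0.24, limma). H2-DMa, at 0.739, 0.772 and 0.897 in WT ANG II kidneys, had a log2 change of -0.01 ± 0.13, and H2-DMb1, at 0.949, 0.702 and 0.780, one of -0.18 ± 0.13. Neither was called. Ciita had ratios of 1.11, 1.00 and 1.17 in WT ANG II kidneys, each above the WT baseline arrays, with a log2 change of 0.23 ± 0.10 (adjusted p = 0.0964, limma).

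The alpha and beta chains of I-A could be compared within each array through the gap between the log2 ratios of H2-Aa and H2-Ab1, a pair chosen after its values were seen. The gap was -0.71, -0.27 and -0.51 in WT ANG II kidneys, against 0.06, 0.07 and 0.13 in WT baseline kidneys. In KO ANG II kidneys it was 0.05, -0.19 and 0.04, against 0.06, 0.12 and 0.08 in KO baseline kidneys. For these leading probe sets the 3 infused WT kidneys had the lowest gaps. Of the 12 pairings of an H2-Aa with an H2-Ab1 probe set, this held in 7. In all 12 the WT ANG II arrays lay below the WT baseline arrays. With 3 against 3 arrays an exact two-sided permutation test cannot go below p = 0.10. It gave this value for WT ANG II against WT baseline and also for KO ANG II against KO baseline kidneys. Both became 0.24 after Benjamini-Hochberg adjustment over 12 such tests of 3 gene pairs. The mean gap changed by -0.59 in WT and by -0.12 in KO mice, without overlap of the arrays in either.

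**Figure D2:**
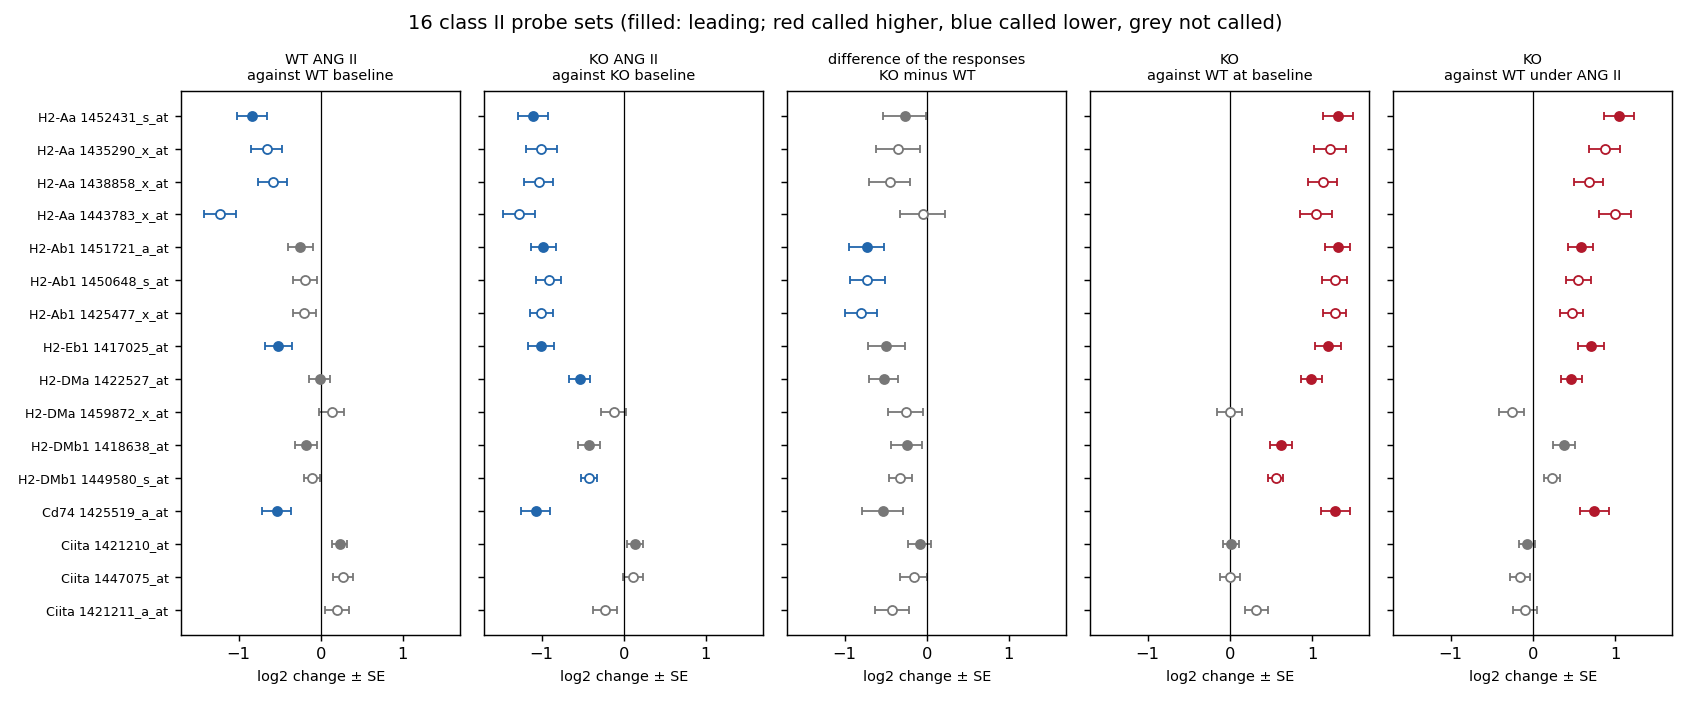
Log2 change with its moderated SE (x axis) of the 16 probe sets (rows) in 5 comparisons. Filled points are leading probe sets, red points were called higher, blue points called lower and grey points not called. The 12 probe sets higher in KO at baseline include every probe set of H2-Aa, H2-Ab1, H2-Eb1, H2-DMb1 and Cd74.

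Whether the response to the infusion differed between genotypes was tested directly. Of the 16 probe sets 3 had a more negative log2 change in KO than in WT mice, all 3 of them of H2-Ab1, and 0 a more positive one. Over all probe sets 9.78% were called, 4.08% more negative and 5.70% more positive in KO. The median difference over the members was -0.38, and over all probe sets -0.01. For the leading probe set of H2-Ab1 the log2 change was -0.98 in KO and -0.25 in WT mice, a difference of -0.73 ± 0.21 (adjusted p = 0.0449, limma). This call was lost in 12 of 20 alternatives, over all of which the adjusted p was 0.021 to 0.113. They were a variance trend (0.0575), quantile normalization (difference -0.48, 0.113) and each single array left out other than WT ANG II replicate 1 and KO baseline replicate 3. For H2-Aa the difference was -0.27 ± 0.26, with a 95% interval of -0.83 to 0.29, for H2-Eb1 -0.49 ± 0.22 and for Cd74 -0.54 ± 0.25, and 0 of these 3 was called. H2-DMa had a difference of -0.53 ± 0.18 (adjusted p = 0.0817, limma), which was called without KO baseline replicate 3 (-0.66, adjusted p = 0.026). The differences of H2-Eb1 and Cd74 were called without WT ANG II replicate 1 (-0.68, adjusted p = 0.0389, and -0.76, adjusted p = 0.0289).

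Under the infusion KO kidneys still carried more class II RNA than WT kidneys. Of the 16 probe sets 10 were higher in KO ANG II than in WT ANG II kidneys and 0 lower, where 19.8% of all probe sets were called, 11.7% higher and 8.17% lower. The groups were separate in 12 of 16, with KO above WT, as for 17.7% of all probe sets, and in 0 with KO below (17.4% of all). H2-Aa was 2.07-fold higher in KO (log2 change 1.05 ± 0.18, adjusted p = 0.00174, limma), Cd74 1.68-fold (0.75 ± 0.18), H2-Eb1 1.63-fold (0.70 ± 0.16), H2-Ab1 by a log2 change of 0.58 ± 0.15 and H2-DMa 1.38-fold (0.47 ± 0.13). Leaving out KO ANG II replicate 1 gave 5 calls, and the adjusted p became 0.0628 for H2-Ab1 and 0.0568 for H2-DMa. Leaving out WT ANG II replicate 1 gave 6 calls, with 0.0514 for H2-Ab1 and 0.0531 for H2-DMa. The H2-DMa call was lost as well when KO ANG II replicate 3 (0.058) or WT ANG II replicate 2 (0.0616) was left out. H2-DMb1 had a log2 change of 0.38 ± 0.13 and was not called (adjusted p = 0.0611, limma), although each KO array was above each WT array. It was called without WT ANG II replicate 1 (adjusted p = 0.0206) and without WT baseline replicate 3 (adjusted p = 0.0335). Ciita had one of -0.07 ± 0.10.

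Ordered by group medians, the leading probe sets of all 6 members other than Ciita ran from KO baseline through KO ANG II and WT baseline to WT ANG II. The middle medians were close in H2-DMb1, at 1.001 and 0.999. Other probe sets differed. In H2-Aa probe sets marked x, WT baseline against KO ANG II medians were 1.018 against 0.982, 1.175 against 0.936 and 0.983 against 1.006. The second H2-DMa probe set ran from WT ANG II through WT baseline and KO baseline to KO ANG II, with overlap at each step. In the leading probe sets of the 6 genes the step from KO baseline to KO ANG II kidneys was free of overlap. KO ANG II kidneys overlapped with WT baseline kidneys in H2-Aa, H2-Eb1 and H2-DMb1, and WT baseline with WT ANG II kidneys in H2-Ab1, H2-DMa, H2-DMb1 and Cd74. The third WT baseline kidney had the lowest ratio of its group in all 6, and its mean log2 ratio over them was -0.42, against -0.05 and -0.03 in the other WT baseline kidneys and -0.79 to -0.43 in WT ANG II kidneys. Across the 12 arrays the leading probe sets of the 6 genes correlated pairwise with Pearson r from 0.82 to 0.99, a description over arrays that also share group differences. The leading probe set of Ciita correlated with them at -0.55 to -0.29 and its other plain one at -0.44 to -0.25. Its probe set of suffix a correlated with them at 0.27 to 0.51, so the sign depended on the probe set. Between the Ciita probe sets r was 0.33, 0.32 and -0.05.

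The 5 H2 members lie in one stretch of chromosome 17, while Cd74 is on chromosome 18 and Ciita on chromosome 16. Along the stretch from H2-Oa to Notch4, ordered by the RefSeq annotation, 13 measured genes are not members. At baseline the median log2 change of these 13 was 0.38 in KO against WT kidneys. Where 4.87% of all probe sets were higher, 7 of the 13 were higher and 0 lower. They were H2-DMb2, the DM-inhibiting chains H2-Oa (0.67 ± 0.13) and H2-Ob (0.64 ± 0.13), the peptide transporter genes Tap1 (0.38 ± 0.08) and Tap2 (0.41 ± 0.11), and the immunoproteasome genes Psmb8 (0.87 ± 0.11) and Psmb9 (0.63 ± 0.09). Next to H2-Eb1, the genes H2-Eb2 and H2-Ea had changes of -0.26 ± 0.12 and -0.15 ± 0.14, and neither was called. Under ANG II 6 of the 13 fell and 0 rose in KO mice, where 6.31% of all probe sets fell. In WT mice 1 fell and 2 rose, where 13.3% of all fell and 10.9% rose, so the WT count is near the background.

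**Figure D3:**
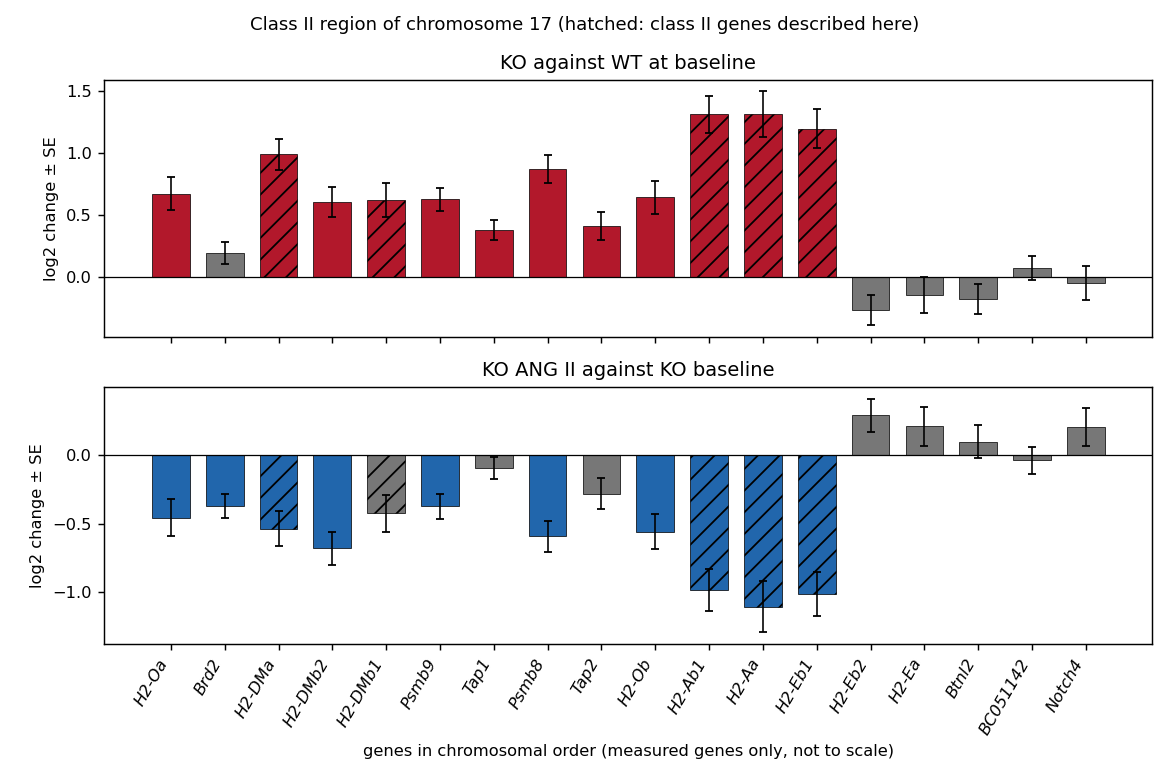
Log2 change with its moderated SE (y axis) of the measured genes from H2-Oa to Notch4 in chromosomal order (x axis, not to scale), for KO against WT at baseline (top) and KO ANG II against KO baseline (bottom). Hatched bars are the class II genes described here, red was called higher, blue lower and grey not called. The bars of H2-Ab1, H2-Aa and H2-Eb1 are the largest of the stretch in both panels.

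The other genes of the class II route changed in part. The median log2 change of 18 measured genes of assembly, processing and costimulation was -0.02 in KO against WT kidneys at baseline. Where 4.87% of all probe sets were higher, 4 of the 18 were higher and 0 lower. These were the DM and DO genes H2-DMb2, H2-Oa and H2-Ob, and Ctss, the cathepsin that cleaves the invariant chain. H2-DMb2, H2-Oa and H2-Ob were already counted in the stretch from H2-Oa to Notch4. Ctss had ratios of 3.68, 3.15 and 2.34 in KO baseline kidneys, against 1.02, 0.976 and 0.767 in WT baseline kidneys, a log2 change of 1.71 ± 0.22 (adjusted p = 0.000881, limma). In KO ANG II kidneys it had ratios of 1.304, 0.81 and 1.05 and fell by 1.54, and in WT ANG II against WT baseline kidneys its change was -0.63 ± 0.22 (adjusted p = 0.0559, limma). The costimulatory genes Cd80, Cd86 and Cd40 and the thiol reductase gene Ifi30 were called in none of the 5 comparisons. In KO ANG II against KO baseline kidneys 5 of the 18 fell and 0 rose, where 6.31% of all probe sets fell. Besides Ctss these were H2-DMb2 (-0.68 ± 0.12), H2-Ob (-0.56 ± 0.13), H2-Oa (-0.46 ± 0.13) and the cathepsin gene Ctsf (-0.33 ± 0.09). In WT ANG II against WT baseline kidneys 2 of the 18 rose, namely H2-Eb2 (0.37 ± 0.12) and the endosomal protease gene Lgmn (0.35 ± 0.10), and 0 fell, where 10.9% of all probe sets rose, a share close to that of the list.

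Genes of the DNA-binding complex and of the interferon gamma route showed few changes at baseline. Of 23 measured, 1 was higher in KO than in WT kidneys, the histone deacetylase gene Hdac2 (0.42 ± 0.08), and 0 were lower. Of all probe sets 4.87% were higher, so this count is near the background. The RFX subunit genes Rfx5 (0.10 ± 0.08), Rfxank (-0.11 ± 0.10) and Rfxap (-0.04 ± 0.10) and the NF-Y genes Nfya, Nfyb and Nfyc were not called in any comparison. Ifng itself had a log2 change of -0.06 ± 0.08 in KO against WT at baseline, and Irf1, which interferon gamma induces, one of 0.29 ± 0.10 (adjusted p = 0.119, limma). In KO ANG II against KO baseline kidneys 3 of the 23 fell and 0 rose, where 6.31% of all probe sets fell. The 3 were Irf2 (-0.44 ± 0.09), the coactivator gene Ep300 (-0.32 ± 0.10) and the receptor gene Ifngr1 (-0.29 ± 0.08). In WT ANG II against WT baseline kidneys 4 fell and 1 rose, where 13.3% of all probe sets fell and 10.9% rose. Those that fell were the repressor gene Prdm1 (-0.53 ± 0.14), Irf2 (-0.45 ± 0.09), the acetyltransferase gene Kat2b (-0.38 ± 0.10) and the receptor gene Ifngr2 (-0.27 ± 0.09), and the one that rose was Il10 (0.31 ± 0.11). Irf2 was thus called lower in both genotypes, and its difference of the responses was 0.01 ± 0.13. Under ANG II 4 of the 23 were higher in KO than in WT kidneys and 0 lower. Of all probe sets 11.7% were higher there. The 4 were Prdm1 (0.77 ± 0.14), Kat2b (0.57 ± 0.10), Ifngr2 (0.28 ± 0.09) and the kinase gene Jak1 (0.25 ± 0.08). The difference of the responses was called for 4 of the 23, where 9.78% of all probe sets were called. The difference, KO minus WT, was positive for Prdm1 and Kat2b and negative for Hdac2 and Ifngr1.

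Class I presentation, which displays peptides of cytosolic proteins, changed in the same comparisons. At baseline 10 of 16 measured class I genes were higher in KO than in WT kidneys and 0 lower. These 10 include Tap1, Tap2, Psmb8 and Psmb9, already counted in the stretch from H2-Oa to Notch4. Of all probe sets 4.87% were higher. The median log2 change of the 16 was 0.40. Nlrc5, the relative of Ciita that activates class I genes, had ratios of 1.79, 1.45 and 1.77 in KO baseline kidneys, against 1.00, 1.01 and 1.00 in WT baseline kidneys. Its log2 change was 0.73 ± 0.12 (adjusted p = 0.0033, limma), and in KO mice it fell by 0.83 under ANG II. B2m, the light chain of class I, was higher by 0.39 ± 0.09 in KO at baseline. In KO ANG II against KO baseline kidneys 10 of the 16 fell and 0 rose, and in WT ANG II against WT baseline kidneys 5 fell and 0 rose, beside 6.31% and 13.3% of all probe sets that fell in KO and WT mice.

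Some macrophage markers were called in the same direction as the class II genes. The median log2 change of 20 macrophage and monocyte markers was 0.89 in KO against WT kidneys at baseline. Where 4.87% of all probe sets were higher, 13 of the 20 were higher and 0 lower. The largest changes among them were those of the lysozyme gene Lyz2 (2.42 ± 0.33), Ctss and C1qb (1.66 ± 0.19). In KO ANG II against KO baseline kidneys 11 fell and 1 rose, where 6.31% of all probe sets fell and 3.60% rose. In WT ANG II against WT baseline kidneys 5 fell and 0 rose, where 13.3% of all probe sets fell. The difference of the responses, KO minus WT, was called for 2 of the 20, both negative. Of all probe sets 9.78% were called there, 4.08% negative. This count is near the background. Under ANG II 9 of the 20 were higher in KO than in WT kidneys and 0 lower. Of all probe sets 11.7% were higher there. The mean log2 ratio of the list was -0.10 to 0.28 in KO ANG II kidneys, 0.53 to 1.05 in KO baseline kidneys, -0.52 to -0.30 in WT ANG II kidneys and -0.27 to -0.01 in WT baseline kidneys. Ctss is a member of this list too. Across the 12 arrays, which share group differences, the mean of the 6 class II genes had a Pearson r of 0.98 with this mean. With the other lists r was 0.96 for class I genes, 0.94 for endothelial markers, 0.92 for dendritic cell markers, 0.85 for the enhanceosome and interferon gamma list and 0.82 for the other class II genes. It was -0.21 for T cell, -0.36 for B cell, -0.48 for proximal tubule and -0.66 for neutrophil markers.

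At baseline 4.87% of all probe sets were higher in KO than in WT kidneys and 1.65% lower. Of 13 dendritic cell markers 4 were higher in that comparison, namely Cd83, Itgax, Clec10a and Irf8, and 0 were lower. Among the markers not called were Flt3 at 0.08 ± 0.12, Zbtb46 at 0.20 ± 0.09 and Xcr1 at 0.09 ± 0.09. The mean of this list was 0.14 to 0.30 in KO baseline kidneys and -0.10 to -0.05 in WT baseline kidneys. Of 11 B cell markers 1 was higher, the adaptor gene Blnk (0.67 ± 0.12), while Cd79a (0.03 ± 0.09) and Ms4a1 (0.00 ± 0.16) were not called, and the list mean was -0.10 to 0.02 in KO and -0.13 to 0.01 in WT kidneys at baseline. Of 11 T cell markers 2 were higher, Il7r (1.12 ± 0.12) and Cd3g (0.41 ± 0.11). Of 12 endothelial markers 2 were higher, Vwf (1.25 ± 0.19) and Tie1 (0.38 ± 0.09), and the list mean was 0.24 to 0.28 in KO and -0.12 to 0.06 in WT kidneys at baseline. Under the infusion 2 of 8 neutrophil markers rose in KO mice, S100a9 (1.84 ± 0.41) and S100a8 (1.58 ± 0.44). In WT mice 4 others rose, with changes of 0.42 to 0.48, and 0 fell in either genotype. The KO ANG II arrays were uneven, with ratios of 4.60, 1.11 and 1.42 for S100a9 and 4.69, 1.06 and 2.20 for S100a8. In WT ANG II kidneys these were 1.12, 2.45 and 1.10 for S100a9 and 1.08, 2.95 and 1.04 for S100a8, and neither was called. The neutrophil mean was 0.14 to 0.49 in KO ANG II, -0.38 to -0.23 in KO baseline, 0.19 to 0.65 in WT ANG II and -0.12 to -0.03 in WT baseline kidneys. Of the dendritic cell markers 3 fell and 0 rose in KO mice, and 0 fell and 0 rose in WT mice. Of the B cell markers 1 fell and 0 rose in KO mice, and 0 fell and 1 rose in WT mice. Of the T cell markers 1 fell and 1 rose in KO mice, and 0 fell and 2 rose in WT mice. Of the endothelial markers 4 fell and 1 rose in each genotype. Of 10 proximal tubule markers 1 rose and 1 fell in KO mice, and 2 rose and 4 fell in WT mice. Beside these counts under the infusion, 3.60% of all probe sets rose and 6.31% fell in KO mice. In WT mice 10.9% of all rose and 13.3% fell. In a ratio table no gene stands at 0, so absent markers cannot be recognised. The part of any of these cell types in the class II values was not tested.

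**Figure D4:**
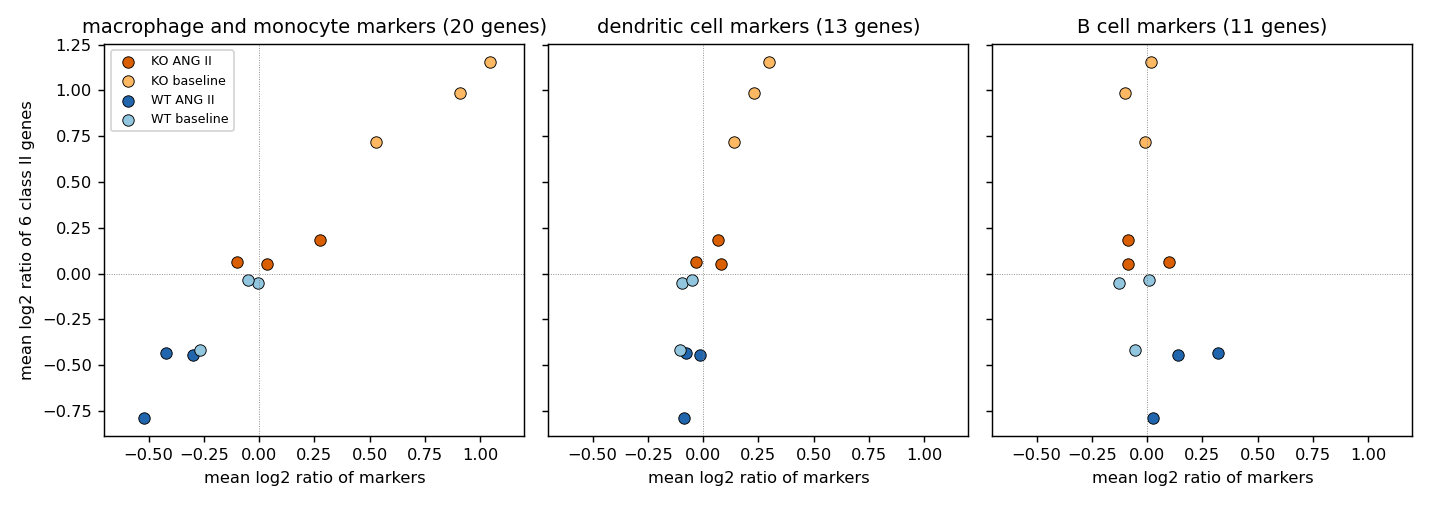
Mean log2 ratio of the 6 class II genes other than Ciita (y axis) against the mean log2 ratio of markers of macrophages and monocytes, dendritic cells and B cells (x axes), 1 point for each of 12 arrays. KO baseline arrays lie at 0.72 to 1.16 on the y axis and at 0.53 to 1.05 for macrophage markers, but at -0.10 to 0.02 for B cell markers.

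The genes most like the class II pattern over the 12 arrays, by Pearson r with the mean of the 6 members other than Ciita, were the complement genes C1qc, C1qa and C1qb, all at 0.99. They were followed by Mpeg1, Oasl2, Mgl2, Vcam1, Tyrobp, Csf2ra and Ms4a4b at 0.98 to 0.99. Their log2 changes in KO against WT at baseline ran from 1.01 for Csf2ra to 2.14 for Vcam1, the adhesion molecule that binds leukocytes. The 5 genes most like the leading probe set of Ciita were Cdk12, Asb14, Zp1, Mettl17 and Il10, at 0.91 to 0.93. Their changes in KO against WT at baseline lay between -0.12 and -0.0040.

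Array measures also differed between the groups. The spread of an array, as the SD of its log2 ratios, was 0.165 to 0.196 in KO ANG II, 0.222 to 0.262 in KO baseline, 0.268 to 0.342 in WT ANG II and 0.164 to 0.180 in WT baseline arrays. The 3' minus 5' log2 ratio of the Actb control probe sets, a relative sign of RNA quality, was 0.00 to 0.03 in KO ANG II, -0.05 to -0.03 in KO baseline, 0.07 to 0.15 in WT ANG II and -0.03 to 0.01 in WT baseline arrays. The same measure from the Gapdh control probe sets overlapped among the groups, at -0.03 to 0.02 in KO ANG II, -0.05 to 0.03 in KO baseline, -0.06 to 0.06 in WT ANG II and -0.03 to 0.00 in WT baseline arrays. Their part in the class II differences was not tested.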

How the data were processed

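Total RNA of 12 kidneys, 1 per mouse and 3 in each of 4 groups, was hybridised to Affymetrix Mouse Genome 430 2.0 arrays. Per the submitters' processing notes the authors used RMA, with no version given in the sources used here. The deposited values are linear ratios to each probe set's median. That reading rests on the values themselves: 45099 of 45101 probe sets have a median within 0.002 of 1, while no source used here states a division. No pair of arrays was identical.

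The ratios were taken to log2 and 64 control probe sets left out. Gene symbols came from the platform annotation, in which 34945 probe sets had 1 symbol, 932 several and 9160 none. Group means were fitted with limma 3.58.1 (R 4.3.3), using the 12 arrays together (8 residual and 5.83 prior degrees of freedom, no variance trend). There were 5 two-sided comparisons, with calls at p under 0.05 after Benjamini-Hochberg adjustment across all 45037 probe sets. Nothing in the labels says more of how the mice were housed or bred together. The p-values set group differences against the spread between mice within groups and treat the mice as independent. A litter, cage or batch shared within a group could not be told apart from the group. The procedure was tested on simulated data. All members are named. Of the lists, up to 6 called genes a comparison, by size of change, and genes whose role the text needs could be named, and some uncalled ones (NF-Y, costimulation and cell type markers) were named after their values were seen, and likeness was ranked by Pearson r. The members and lists were chosen with earlier results of these data known. Leading probe sets followed a rule on their names. The alternatives were 9 other settings and each array left out in turn. Gene order and promoters are those of GRCm38.p6.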

Additional observations from a re-analysis of the deposited data

Results flagged for a closer look

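The response to ANG II differed between the genotypes in all 3 probe sets of H2-Ab1, by a test of the difference itself (limma, Benjamini-Hochberg adjusted over all probe sets, n = 3 per group). The difference, KO minus WT, was -0.73 ± 0.21 for the leading one, of suffix a (adjusted p = 0.0449), -0.72 ± 0.21 for that of suffix s (adjusted p = 0.0483) and -0.80 ± 0.20 for that of suffix x (adjusted p = 0.0205). These probe sets share their transcript and are not independent. The KO baseline arrays, the highest of the series for this gene, enter the difference. The call of the leading probe set was lost in 12 of 20 alternatives, over which its adjusted p was 0.021 to 0.113 (limma), and quantile normalization left 0 of the 3 called.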

How the results depend on the processing

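The number of called members in KO against WT at baseline, 12 of 16, was 11 to 12 when single arrays were left out, and stayed within 1.5 times under every other setting except 1 probe set per gene. With 1 probe set per gene, which leaves 7 members by construction, 3 were called in the WT response, 5 in the KO response, 1 in the difference of the responses, 6 in KO against WT at baseline and 5 in KO against WT under ANG II. Quantile normalization left 2 calls of 6 in the WT response and 0 of 3 in the difference, and a variance trend left 1 in the difference. Leaving out single arrays gave 2 to 6 calls in the WT response, 9 to 12 in the KO response, 0 to 5 in the difference and 5 to 11 in KO against WT under ANG II. In limma's 3 counts of 0, in the difference, 4 of 16 had an unadjusted p under 0.05 in each. The WT count was 2 without WT ANG II replicate 1, WT baseline replicate 1 or WT baseline replicate 2. For the difference it was 5 without WT ANG II replicate 1, 0 without KO baseline replicate 1 or WT baseline replicate 3, and 1 without any of KO ANG II replicates 1 to 3, WT ANG II replicate 2 or 3, KO baseline replicate 2 or WT baseline replicate 1. The H2-DMa change in the WT response, -0.01, was 0.11 with quantile normalization and between -0.118 and 0.0492 with single arrays left out, and that of Ciita in KO against WT at baseline was between -0.0402 and 0.117 with single arrays left out. The cause was not tested. The replicate numbers were not taken as pairs because the labels do not say that a number marks a shared litter, batch or day. Of 18 same-numbered pairs of arrays 7 had deviations from the group means correlated above 0.1. The median r was 0.013 for same-numbered pairs and -0.011 for the others. The replicate number as a block gave 6, 12, 3, 12 and 11 calls in the WT response, the KO response, the difference, baseline and ANG II comparisons, and of the leading probe sets it moved only H2-DMb1 past the threshold, in the KO response (adjusted p = 0.0453, limma) and under ANG II (0.0449). The filter on low spread removed 2 of the 16 probe sets, the leading one of Ciita among them. Ratios do not show how far a signal stood above background, so dim probe sets could not be told from bright ones.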
